A study of Rattus norvegicus with 74 samples.

Results

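The 10 genes described here are immediate early response genes, chosen by symbol: Fos, Fosb, Jun, Junb, Egr1, Egr3, Atf3, Nr4a1, Nr4a3 and Ier2. All 10 were found, out of 30560 genes in the deposited count tables, and all 10 passed the filter on low counts in each comparison. The row of Junb carries the biotype "pseudogene" in the tables, and the other 9 are listed as protein coding. The animals were male Wistar Kyoto rats, 9 weeks old at sampling. From 5 weeks of age the trained rats (ExT) ran on a motorised treadmill for 4 weeks, on 5 days a week, reaching 60 min at 20 m/min, and the sedentary rats (Sed) stood on a treadmill that was switched off. Rats of both arms drank water with deuterium oxide and were housed in pairs, and tissue was collected under isoflurane anaesthesia 24 h after the last session. Whole inner red gastrocnemius, a hindlimb muscle (SM), and mitochondria captured from the same muscle with an antibody and then exposed to RNase-A and proteinase-K (MT), were sequenced from 30 rats, 15 in each arm. Left ventricle wall (LV) came from 14 of these rats, 7 in each arm.

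Immediate early genes are transcribed within minutes of a signal, from promoters that are already bound by factors waiting to be phosphorylated, and need no new protein to start. Most of them encode transcription factors, and their mRNAs are short-lived, so that their levels usually return to baseline within hours. In skeletal muscle and heart they are known for rising soon after contraction, stretch or growth factor signals.

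Promoter sequences are shown for 3 members because their matches to binding motifs of the classical upstream factors differ. The sequences are RefSeq's, from the GRCr8 build, and 5 of the 10 members had an entry (Fosb, Junb, Egr1, Nr4a1 and Ier2). Each run holds the 250 bases before the gene's annotated start, 5′ to 3′ on the gene's strand. Capitals mark matches on either strand to the CArG box (the site of serum response factor), the cAMP response element TGACGTCA, its 5-base core TGACG, which lies inside the full element, the AP-1 site TGANTCA or the EGR site GCGNGGGCG. Egr1 (chr18:26736828-26737077, plus strand), Nr4a1 (chr7:134259888-134260137, plus strand) and Ier2 (chr19:40399123-40399372, plus strand) read as follows.
Egr1: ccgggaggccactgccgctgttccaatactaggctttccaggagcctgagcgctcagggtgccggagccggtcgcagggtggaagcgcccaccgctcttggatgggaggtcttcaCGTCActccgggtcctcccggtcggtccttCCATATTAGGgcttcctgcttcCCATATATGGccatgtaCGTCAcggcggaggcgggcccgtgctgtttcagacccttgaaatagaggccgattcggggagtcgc
Nr4a1: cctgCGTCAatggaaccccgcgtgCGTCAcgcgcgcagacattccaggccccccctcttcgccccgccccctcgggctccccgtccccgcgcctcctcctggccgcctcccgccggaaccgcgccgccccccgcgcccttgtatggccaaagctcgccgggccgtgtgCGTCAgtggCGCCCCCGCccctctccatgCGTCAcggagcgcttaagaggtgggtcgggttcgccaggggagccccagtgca
Ier2: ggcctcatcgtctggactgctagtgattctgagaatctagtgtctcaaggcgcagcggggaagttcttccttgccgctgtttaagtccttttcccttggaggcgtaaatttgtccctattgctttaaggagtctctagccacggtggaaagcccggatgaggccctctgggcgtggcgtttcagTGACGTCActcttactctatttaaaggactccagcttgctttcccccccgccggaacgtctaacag
The Egr1 run held 2 CArG boxes and 2 TGACG cores. The Nr4a1 run held 4 TGACG cores and 1 EGR site, and the Ier2 run held 1 full cAMP response element. Among 27457 promoters of the same length, a CArG box was found in 1.501%, the full element in 1.70%, the core in 18.96%, the AP-1 site in 6.36% and the EGR site in 4.53%. Of the 5 members with an entry, 4 held the core, 1 each held a CArG box, the full element and an EGR site, and 0 held the AP-1 site; Fosb held none of the 5 motifs in this window.

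SM libraries held 19477976 to 39401323 counts, MT libraries 530397 to 9988027 and LV libraries 54645657 to 75758777. Nuclear-encoded genes took 430162 to 1055433 of the counts of an MT library, and a single member had 3 to 68 counts there. The tissue labels were checked with marker sums in CPM (the count of a gene relative to the total of its library, adjusted by TMM factors within each kind of sample). Skeletal fibre markers summed to 75100 to 139900 CPM in SM and 1348 to 1993 CPM in LV, and cardiomyocyte markers summed to 23.1 to 90.5 CPM in SM and 26150 to 36320 CPM in LV. In MT the skeletal fibre markers summed to 219 to 1210 CPM and the cardiomyocyte markers, all 7 with a median above 0, to 203 to 269 CPM. The rats' numbers fell into an earlier range (2 to 16, 14 rats) and a later one (17 to 32, 16 rats), which held equal numbers of both arms. In SM, 12.3% of the 14033 genes tested differed between the ranges, and of the members Junb did, by -0.31 (log2, later minus earlier, SE 0.0908, edgeR adjusted p = 0.0202). In MT 1.47% of genes and 0 of 10 members differed between the ranges, so training results are also given within each.

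In whole muscle the log2 fold change of all 10 members (ExT against Sed) was below 0. Members tended to vary together over rats in SM, as described below, so the 10 signs are not separate observations. None of the differences passed the test at an adjusted p under 0.05 (edgeR quasi-likelihood test, Benjamini-Hochberg adjustment over 13570 genes). The median CPM of Jun and Atf3 was higher in ExT. The log2 fold changes of Jun and Nr4a3 rose above 0, to at most 0.0162 and 0.17, when some single libraries were left out. In the same test 0.206% of genes passed, 25 higher and 3 lower in ExT. The median log2 fold change of the members was -0.39 and that of all genes tested -0.0055. Without adjustment, 5 of 10 members (Fos, Fosb, Junb, Egr1 and Ier2) and 1860 of 13570 genes had a p under 0.05. DESeq2 called 118 of 24125 genes (0.489%), among them 1 member, Egr1. In bulk tissue, fewer cells of a type and less RNA per cell cannot be told apart.

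Among the AP-1 genes, Fos encodes the partner that needs a Jun protein to bind DNA. Its SM level ran from 5.11 through a median of 13.8 to 59.9 CPM in Sed rats and from 4.01 through 8.19 to 25.5 CPM in ExT rats. Sed rats 16, 31 and 32, at 52.7, 42.6 and 59.9 CPM, were above every ExT rat, and 3 ExT rats were below every Sed rat. The log2 fold change was -1.09 (SE 0.350; adjusted p = 0.175 by edgeR). In the earlier range it was -0.70 (adjusted p = 0.408) and in the later range -1.51 (adjusted p = 0.722).

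Fosb, a close relative of Fos, ran from 0.344 through 2.25 to 10.8 CPM in Sed and from 0.630 through 1.25 to 3.24 CPM in ExT. In 14 of 15 ExT rats it was below the Sed median, although the lowest level of all was in a Sed rat. The log2 fold change was -1.08 (SE 0.336; adjusted p = 0.160 by edgeR), and -1.21 and -0.85 among the earlier and the later rats. Jun, the AP-1 subunit that can pair with itself, ran from 105.5 through 176 to 284.5 CPM in Sed and from 138 through 185 to 224 CPM in ExT. The ExT rats lay inside the Sed range, with 3 Sed rats above and 4 below all of them, and the log2 fold change was -0.04 (SE 0.111). Junb, a Jun relative that often restrains Jun activity, ran from 6.02 through 8.74 to 12.4 CPM in Sed and from 5.56 through 7.53 to 9.48 CPM in ExT. The 6 highest rats for Junb were Sed rats, and the log2 fold change was -0.32 (SE 0.105; adjusted p = 0.175 by edgeR), with -0.31 and -0.33 among the earlier and the later rats.

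Egr1, a zinc finger factor and the member nearest to the threshold, ran from 6.59 through 16.8 to 25.4 CPM in Sed rats and from 5.81 through 8.14 to 19.03 CPM in ExT rats. In 14 of 15 ExT rats its level was below the Sed median, 5 Sed rats were above every ExT rat, and 4 ExT rats were below every Sed rat. The log2 fold change was -0.80 (SE 0.183; adjusted p = 0.0546 by edgeR), a level 1.75 times as high in Sed. DESeq2 gave an adjusted p of 0.00774 for the same gene. In the earlier range the log2 fold change was -1.07 (edgeR adjusted p = 0.0124, with 2.95% of genes called), and in the later range -0.57 (adjusted p = 0.820, with 0.00732% called). Leaving out each of the 30 libraries in turn, an alternative added after the data were seen, gave an adjusted p for Egr1 from 0.0141 (without ExT rat 17) to 0.107 (without Sed rat 7). It was under the threshold in 7 of the 30 refits. ExT rat 17 had the highest Egr1 of its arm, 19.03 CPM. Egr3, a relative of Egr1, ran from 0.211 through 0.808 to 2.87 CPM in Sed and from 0.259 through 0.628 to 1.35 CPM in ExT. Sed rats 16, 31 and 32 were again above every ExT rat, and the log2 fold change was -0.55 (SE 0.301; adjusted p = 0.426 by edgeR).

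Like Jun, Atf3, a stress-induced repressor of the ATF family, had its median on the other side, at 7.25 CPM in Sed and 10.5 CPM in ExT. Its range was 2.80 to 53.1 CPM in Sed and 3.75 to 51.8 CPM in ExT. Sed rats 16, 23, 31 and 32 and ExT rat 9 lay between 35.4 and 53.1 CPM, and every other rat was below these 5. The log2 fold change of -0.46 (SE 0.468; adjusted p = 0.703 by edgeR) was 0.43 among the earlier rats, -1.44 among the later rats, and -0.84 without ExT rat 9.

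The 2 NR4A genes encode orphan nuclear receptors that act without a known circulating ligand. Nr4a1 ran from 40.7 through 71.6 to 106.4 CPM in Sed and from 39.9 through 61.7 to 135 CPM in ExT, and the log2 fold change stood at -0.10 (SE 0.163; adjusted p = 0.816 by edgeR). Nr4a3 ran from 2.03 through 4.23 to 15.6 CPM in Sed and from 0.667 through 3.12 to 31.7 CPM in ExT. ExT rat 9 was the highest rat for both, and 5 ExT rats were below every Sed rat for Nr4a3. Its log2 fold change was -0.04 (SE 0.475), but 0.95 in the earlier range, which holds rat 9, -1.17 in the later range and -0.64 without rat 9. None of these values passed the test.

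Ier2, a short nuclear protein induced with Fos, ran from 9.05 through 13.8 to 18.5 CPM in Sed and from 7.25 through 11.3 to 13.1 CPM in ExT. All 15 ExT rats were below the Sed median and 9 of 15 Sed rats were above every ExT rat. The difference was nevertheless small, and the log2 fold change stood at -0.24 (SE 0.0845; adjusted p = 0.207 by edgeR), and -0.22 and -0.25 among the earlier and the later rats.

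**Figure D1:**
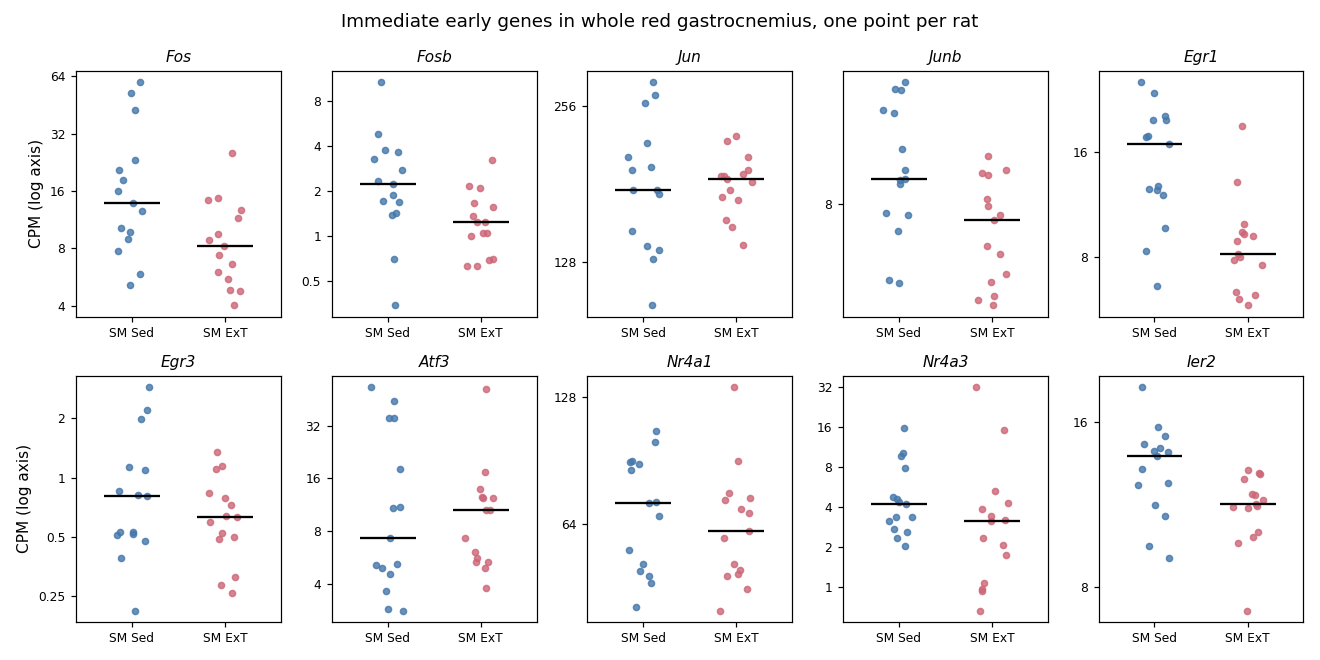
Level of each member in whole muscle in CPM on a log axis, with 1 point per rat and a black line at the median of the arm (15 Sed and 15 ExT rats). The arms overlap for every member, and for Fos, Fosb, Egr1 and Ier2 the ExT points sit lower, as with Egr1 at medians of 16.8 and 8.14 CPM.

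Markers of other cell types in the same SM libraries also leaned one way, without a gene past the training test. Leukocyte markers, 10 of 10 with a median above 0, summed to 46.1 to 122 CPM in Sed (median 73.0) and 44.3 to 73.7 CPM in ExT (median 56.4). All 7 tested leukocyte genes had a negative log2 fold change, with a median of -0.26 beside -0.0055 over all genes, and 4 had an unadjusted p under 0.05. Endothelial markers, 7 of 7 above 0, summed to 344.5 to 677 CPM in Sed (median 507.6) and 469.9 to 692 CPM in ExT (median 570.8), and all 7 log2 fold changes were positive (median 0.20, 6 at an unadjusted p under 0.05). Mural markers, 6 of 6 above 0, had medians of 415 CPM in Sed and 482 CPM in ExT, and all 6 log2 fold changes were positive (median 0.25, 4 at an unadjusted p under 0.05). Nerve markers, 4 of 4 above 0, summed to 5.62 to 93.9 CPM in Sed and 16.8 to 107 CPM in ExT (median log2 fold change 0.45), and the 2 tested adipocyte genes had a median of -0.67. All 6 fibroblast log2 fold changes were negative (median -0.15, 0 at an unadjusted p under 0.05). Of 7 tested skeletal fibre genes 6 were negative and 1 positive (median -0.16), with 3 and 1 at an unadjusted p under 0.05. All tested erythroid (4), satellite cell (3) and cardiomyocyte (5) genes were positive. In Sed rats 16, 31 and 32, high in Fos, leukocyte markers summed to 73.5, 75.7 and 52.6 CPM. Fibroblast markers summed to 2448, 5362 and 2911 CPM in these rats, beside 1859 to 4306 CPM in ExT. The part of other cell types in the members' levels was not tested.

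The wider pathway did not pass the training test in whole muscle either, with 0 genes called in every list. The median log2 fold change was 0.0029 over 12 tested AP-1, MAF and ATF relatives, -0.29 over 3 EGR relatives and NAB corepressors, and -0.0765 over 4 genes of the NR4A relative and its RXR partners. It was -0.0602 over 37 other immediate early and early response genes, -0.0323 over 16 feedback inhibitors such as dual-specificity phosphatases, and -0.0285 over 27 upstream factors and kinases, beside -0.0055 over all genes.

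In captured mitochondria training moved no member past the threshold: 0 of 10 members and 0 of 19281 genes were called (0%), with 912 genes and 0 members at an unadjusted p under 0.05, and DESeq2 called 0 genes too. The log2 fold changes lay between -0.27 for Junb (SE 0.199) and 0.20 for Fosb (SE 0.123), with a median of -0.0406 beside 0.0018 for all genes. Fos ran from 4.77 through 7.47 to 13.9 CPM in MT_Sed and from 2.84 through 7.89 to 14.2 CPM in MT_ExT, with 6 to 33 and 3 to 28 counts. Egr1 ran from 4.77 through 11.2 to 15.3 CPM in MT_Sed and from 6.56 through 9.16 to 16.4 CPM in MT_ExT. At the mean count of the 30 MT libraries, counting error alone gives a coefficient of variation of 26.3% for Fos, and the measured one was 34.7%. For Nr4a3 the values were 18.1% and 19.7%. Counting error is larger in libraries with fewer counts, so its part is understated here. The difference between MT and SM in the training effect was called for 0.0181% of 27684 genes and for 0 members. Fosb had the lowest adjusted p of the members in that test, 0.319, with a difference of 1.26 (log2, MT minus SM, SE 0.391).

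In the left ventricle 0 of 10 members and 0 of 14488 genes were called (0%), with 855 genes and 0 members at an unadjusted p under 0.05 and 0 genes by DESeq2. Of the members, 5 had a positive and 5 a negative log2 fold change, from -0.22 for Nr4a3 (SE 0.204) to 0.16 for Atf3 (SE 0.169). Fos ran from 1.45 through 2.08 to 3.93 CPM in LV_Sed and from 0.600 through 1.45 to 6.21 CPM in LV_ExT, and 3 ExT rats were below every Sed rat. Its log2 fold change was -0.17 (SE 0.455), and -0.78 (SE 0.332, edgeR adjusted p = 0.396) in the later range, which leaves out ExT rat 14, the rat at 6.21 CPM, and Sed rat 16. Jun ran from 36.5 through 48.4 to 57.2 CPM in LV_Sed and from 43.5 through 53.4 to 61.2 CPM in LV_ExT, Ier2 from 13.4 through 15.8 to 19.7 CPM and from 13.6 through 15.7 to 19.2 CPM. The training effect in LV minus that in SM was positive for 10 of 10 members, with a median of 0.74 beside 0.0105 for all genes. It was called for 0 members and 0 of 15049 genes (0%), with 3 members and 687 genes at an unadjusted p under 0.05, and 3 genes by DESeq2. Atf3 had a difference of 1.71 (SE 0.613) and Fos one of 1.65 (SE 0.754). Because members tended to vary together over rats in SM, the 10 signs are not separate observations. These differences use the SM libraries of the same 14 rats, which are part of the training comparison above. Sed rats 16, 31 and 32, high in SM for Fos, are among these rats, and ExT rat 9 is not. On the scale shared with LV, mean SM Fos in these rats was 28.7 CPM in Sed and 8.33 CPM in ExT.

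**Figure D2:**
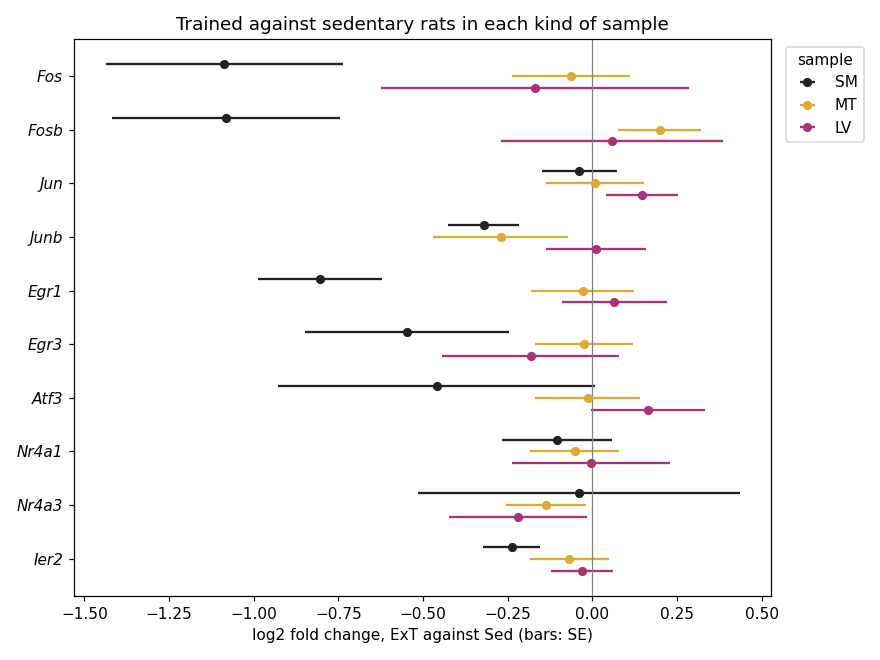
Log2 fold change of each member, ExT against Sed, with its SE, in whole muscle (SM), mitochondria (MT) and left ventricle (LV). All 10 SM values are below 0, with Fos at -1.09 and Fosb at -1.08, but these are not separate observations. MT values lie between -0.27 and 0.20 and LV values between -0.22 and 0.16.

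The members varied widely between rats of one arm in whole muscle. The biological coefficient of variation, which edgeR estimates after counting error is removed, was 0.862 for Nr4a3, 0.844 for Atf3, 0.636 for Fos, 0.607 for Fosb and 0.5285 for Egr3, beside a median of 0.147 over 13570 genes. These 5 stood at the 98.7th percentile of all genes or above. Egr1 (0.339) and Nr4a1 (0.306) stood at percentiles 93.4 and 90.9, Jun and Junb at 75.8 and 70.4, and Ier2, at 0.158, near the middle (56.2). Relative to the trend that edgeR fits for genes of like level, Jun, Junb and Ier2 stood higher, at percentiles 91.5, 84.8 and 75.5. In LV the Fos value was 0.573, at percentile 98.3, and that of Ier2 0.127, at percentile 54.8 (83.1 relative to the trend). In MT, Jun had the widest variation of the members, 0.218 at percentile 95.4.

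The highest level of Nr4a3 in SM was 47.5 times the lowest, and that of Fosb 31.4 times, of Atf3 18.9 times and of Fos 14.9 times. That of Junb was 2.22 times the lowest. Sed rat 16 was among the 5 highest of 30 rats for all 10 members, Sed rat 31 for 8, and Sed rat 32 and ExT rat 9 for 6 each. In the other direction, ExT rats 2, 22 and 25 and Sed rat 20 were among the 5 lowest for 5 members each.

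The spread was not shown to differ between the arms. Tests on absolute deviations from the arm's centre (limma, adjusted over all genes) called 0% of genes in SM, in MT and in LV and 0 members, while 594, 559 and 213 genes had an unadjusted p under 0.05. In SM the mean deviation was smaller in ExT for 9 of 10 members, which tended to vary together over rats and are not separate observations. The median difference over all genes was -0.0055 (log2, ExT minus Sed). For Jun it was 0.142 in ExT and 0.324 in Sed (log2, limma unadjusted p = 0.0147, adjusted p = 0.994), and for Nr4a3 it was larger, 1.06 in ExT and 0.652 in Sed.

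**Figure D3:**
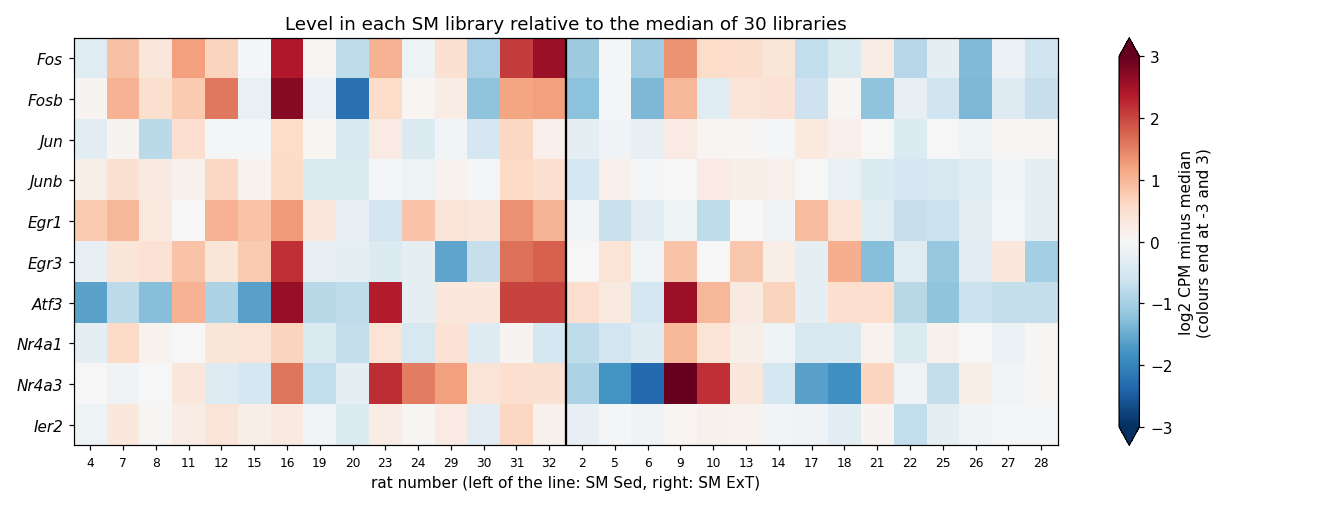
Level of each member in each SM library as log2 CPM minus the median of the 30 libraries; columns are rats by number, Sed left and ExT right of the line. Sed rats 16, 31 and 32 are red over most rows, and ExT rat 9 is red for Fos, Atf3 and Nr4a3, at 25.5, 51.8 and 31.7 CPM.

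Levels of the members tended to vary together over the rats in whole muscle. With the mean of each arm subtracted, 44 of 45 pairs of members had a positive Pearson correlation over 30 libraries, with a median r of 0.49. The exception was Egr1 with Nr4a3, at -0.22, and the highest value was that of Fos with Fosb. Pairs without Fos were not tested, and the share of positive pairs among other genes was not counted. The correlation with Fos was tested by permuting rats within the arm, 100000 times, with adjustment over 13569 genes, of which 0.265% passed. The smallest p these permutations can give is 1e-05, which after adjustment is 0.0194.

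Fosb, Jun, Atf3 and Ier2 passed the test with Fos. For Fosb r was 0.82 (permutation p = 1e-05, adjusted 0.0194) and rho 0.82 (p = 1e-05, adjusted 0.0151), and r was 0.79 without the 2 libraries farthest from the Fos median and 0.85 with the means of the rat ranges also subtracted. For Jun r was 0.71 (permutation p = 4e-05, adjusted 0.0295) and rho 0.73 (p = 3e-05, adjusted 0.0226), with 0.69 and 0.75 under these changes. For Atf3 r was 0.75 (permutation p = 3e-05, adjusted 0.0295) and rho 0.65 (p = 0.00028, adjusted 0.0644), with 0.66 and 0.80, and it did not pass without the 2 libraries (adjusted permutation p = 0.072). For Ier2 r was 0.67 (permutation p = 8e-05, adjusted 0.0339) and rho 0.73 (p = 1e-05, adjusted 0.0151), with 0.76 and 0.65, and it did not pass with the range means subtracted (adjusted permutation p = 0.0848). The other 3 did pass with the range means subtracted, at adjusted permutation p-values of 0.0194 for Fosb and Atf3 and 0.0370 for Jun. Over these 30 rats the highest level of Jun was 2.697 times the lowest and that of Ier2 2.55 times, beside 14.9 times for Fos.

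The other 5 members did not pass after adjustment. Junb had r = 0.66 (permutation p = 0.00016, adjusted 0.0571) and rho = 0.67 (p = 0.00013, adjusted 0.0430), and Egr3 had r = 0.65 (p = 0.00026, adjusted 0.0692) and rho = 0.55 (p = 0.00276, adjusted 0.108). Nr4a1 had r = 0.52 (permutation p = 0.0036, adjusted 0.152) and rho = 0.49 (p = 0.00806, adjusted 0.1515), and Nr4a3 r = 0.48 (p = 0.00337, adjusted 0.151) and rho = 0.43 (p = 0.0171, adjusted 0.192). Without the 2 farthest libraries r was 0.605 for Junb, 0.49 for Egr3, 0.67 for Nr4a1 and 0.50 for Nr4a3. Egr1, the member with the lowest p for training, had r = 0.24 (permutation p = 0.232, adjusted 0.574) and rho = 0.18 (p = 0.372, adjusted 0.677), and r = 0.0777 without the 2 farthest libraries.

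Outside the members, the 5 genes most correlated with Fos in SM were Otud1 (r = 0.88), Irs2 (0.79), Csrnp1 (0.78), Mafk (0.77) and Jund (0.75), over 30 libraries. Otud1 encodes a deubiquitinase, Irs2 an adaptor of the insulin receptor, Csrnp1 a nuclear protein induced by axin, and Mafk and Jund leucine zipper factors of the MAF and AP-1 families. All of these libraries share the scaling of the whole table, and the median correlation of all genes with Fos was -0.0005.

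Fewer pairs were positive in the other kinds of sample. In MT 22 of 45 pairs were positive, with a median r of -0.0199, and in LV 37 of 45 with a median of 0.33 over 14 libraries. A member had 3 to 68 counts in an MT library, which limits what correlations there can show. No gene passed the test with Fos in MT (0% of 19280 genes) or in LV (0% of 14487 genes). The highest r with Fos among members was 0.50 in MT (Nr4a1, permutation p = 0.00709, adjusted 0.501; rho = 0.38, p = 0.0402, adjusted 0.9605) and 0.64 in LV (also Nr4a1, permutation p = 0.0215, adjusted 0.983; rho = 0.50, p = 0.0751, adjusted 1). Without the 2 farthest libraries these were 0.30 and 0.58. The LV pair with the highest correlation was Junb with Ier2, at 0.90. Whether the correlations differ between SM, MT and LV was not tested.

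A rat high in whole muscle was not shown to be high in its other samples. Between the SM and the MT library of a rat, 0% of 12694 genes and 0 of 10 members passed, with r from -0.18 (Fos) to 0.36 (Nr4a1, permutation p = 0.0540, adjusted 0.812; rho = 0.25, p = 0.187, adjusted 0.910). The low counts of the members in MT limit this comparison. Between SM and LV of 14 rats, 0% of 13039 genes and 0 members passed. There Fosb had r = 0.53 (permutation p = 0.149, adjusted 0.925; rho = 0.45, p = 0.174, adjusted 0.958) and Fos r = 0.35 (permutation p = 0.101, adjusted 0.902; rho = 0.37, p = 0.172, adjusted 0.958). With range means also subtracted, the Fosb value was 0.0598. Sed rat 31 was among the 5 highest of the 14 LV libraries for 9 members and Sed rat 16 for 6, whereas in ExT rat 14, with 7 members among the highest in LV, SM had none among its 5 highest of 30.

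**Figure D4:**
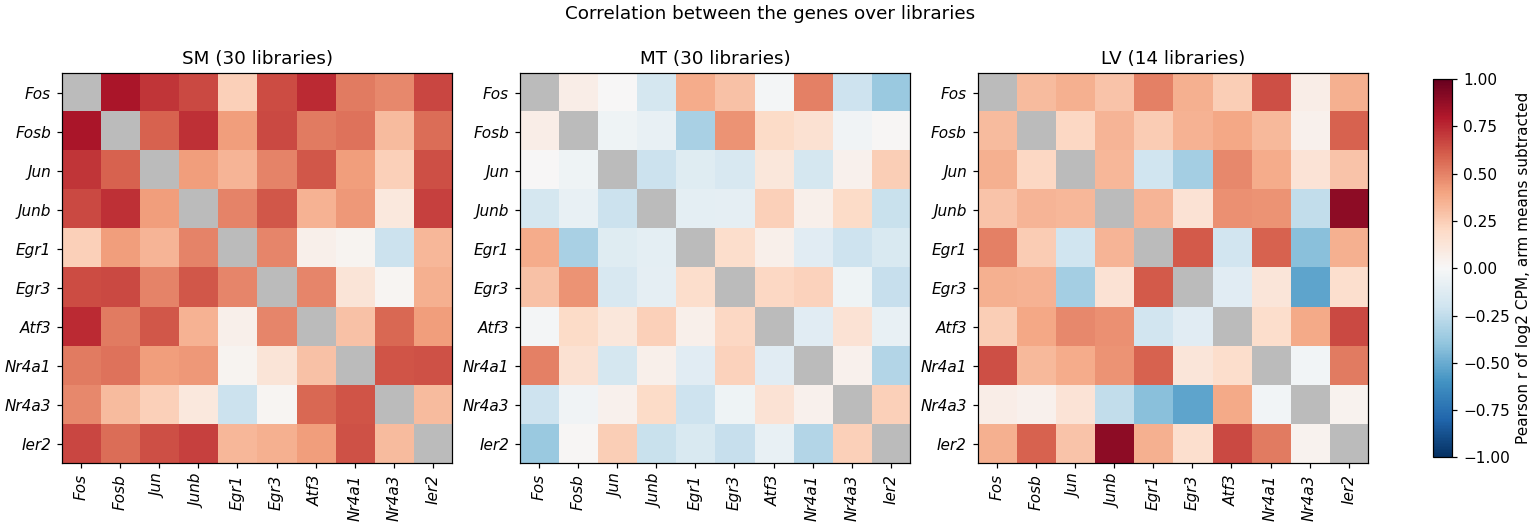
Pearson correlation between members over libraries (log2 CPM, arm means subtracted), for whole muscle, mitochondria and left ventricle; red is positive, blue negative and the diagonal grey. In SM 44 of 45 pairs are positive, in MT 22 and in LV 37.

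Levels were then compared between kinds of sample on one scale per comparison, which gives the order of each member's levels but not an order among members, since lengths were not used. MT and SM differed in the handling of the sample (RNase-A and proteinase-K) and in RNA input (10 and 50 ng), and LV and SM in the library kit and input (100 and 50 ng). Kind of sample and these steps cannot be told apart. The main fit did not pair the samples of a rat, and the SEs below are from that fit. With the rat as a replicate block, 10 of 10 members passed between MT and SM in both arms. In those fits 94.7% of all genes passed in Sed and 94.2% in ExT.

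In Sed rats 94.8% of the 22842 genes tested differed between MT and SM, and the median log2 fold change of all genes was 1.81. Of the members 7 were lower in MT, 2 were higher and 1, Nr4a3, did not pass. Jun fell from 306.5 ± 90.5 CPM in SM to 12.97 ± 4.11 CPM in MT (SD, n = 15 each), a log2 fold change of -4.59 (SE 0.169), and was lower in MT in 15 of 15 rats, with no overlap. Nr4a1 fell from 116 ± 36.6 to 10.3 ± 2.90 CPM (log2 fold change -3.50, SE 0.170) and Fos from 33.6 ± 28.2 to 5.39 ± 1.87 CPM (log2 fold change -2.63, SE 0.404). The log2 fold change was -1.93 for Atf3, -1.86 for Egr1, -1.76 for Junb and -0.78 for Ier2. Egr3 rose from 1.64 ± 1.27 to 8.05 ± 1.93 CPM (log2 fold change 2.30, SE 0.278), higher in MT in 15 of 15 rats. Fosb rose from 4.74 ± 4.29 to 10.9 ± 3.15 CPM (log2 fold change 1.20, SE 0.330), higher in 14 of 15 rats.

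In ExT rats, where 94.3% of 21312 genes differed and the median of all genes was 1.31, the same 7 members were lower and the same 2 higher. Fosb had a log2 fold change of 2.51 (SE 0.192) and Egr3 one of 2.84 (SE 0.201), both higher in MT in 15 of 15 rats, and Fos one of -1.59 (SE 0.301). Nr4a3 did not pass in either arm (log2 fold change 0.41 in Sed, edgeR adjusted p = 0.141, and 0.32 in ExT, edgeR adjusted p = 0.548). With the rat as a replicate block it passed in both, at 0.63 (adjusted p = 0.0105) and 1.06 (adjusted p = 0.0139).

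The scale of this comparison depends on the scaling. With library totals alone the median of all genes moved from 1.81 to 3.43 in Sed and from 1.31 to 2.92 in ExT, and the share of called genes that were higher in MT from 65.1% to 86.2% and from 62.9% to 86.5%. By DESeq2 that share was 76.7% and 76.6%. With library totals Ier2 turned to a higher level in MT, by 0.84 in Sed and 0.97 in ExT. Fos, Junb, Egr1 and Atf3 in ExT turned to values above 0 that did not pass. In Sed 7 members passed with library totals, 4 higher and 3 lower, beside 2 higher and 7 lower with TMM. In ExT 6 passed, 4 higher and 2 lower. With library totals 89.4% of all genes tested passed in Sed and 85.4% in ExT. By DESeq2 3 members were higher and 7 lower in both arms, with 93.9% of genes called in Sed and 94.1% in ExT. Relative to the median of all genes, 9 of 10 members lay below it in Sed and 8 of 10 in ExT, with library totals as with TMM. Egr3 was the member above it in Sed, and Egr3 and Fosb in ExT. With no filter on low counts, and with DESeq2, all 10 lay below it in both arms.

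Relatives of the members also lay on both sides of SM. In Sed rats 6 of the 17 tested rows of AP-1, MAF and ATF relatives were higher in MT and 11 lower, with Fosl1 at 5.42 (a median of 3 counts in SM), Atf4 at -4.29 and Atf5 at -3.15 (log2). The symbol Mafk has 2 rows: the one correlated with Fos above (ENSRNOG00000065794) was lower in MT, at -1.01, and the other (ENSRNOG00000001277) had a median of 0 counts in SM and 17 in MT. Of the EGR relatives and NAB corepressors 3 were higher (Egr4, Egr2 at 2.08 and Nab2 at 0.77) and 1 lower (Nab1 at -0.92). Of the NR4A relative and RXR partners Nr4a2 was higher (1.92), and Rxra, Rxrg and Rxrb were lower (-2.79, -2.51 and -0.47). Egr4 had a median of 0 counts in SM and 16 in MT; fitted values of Egr4 and of the second Mafk row depend on the prior count and are not given. Upstream factors and kinases were lower in 25 of 27 tested, such as Mef2c (-5.16), a muscle transcription factor. In MT libraries leukocyte markers, 10 of 10 with a median above 0, summed to 151 to 216 CPM, beside 203 to 269 CPM for cardiomyocyte markers. The part of RNA from other cells in the members' MT levels was not tested.

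In the left ventricle 78.7% of the 14367 genes tested differed from SM in Sed rats, with a median of 0.0353, and 8 of 10 members were lower and 1 higher. Nr4a1 fell from 68.9 ± 26.4 CPM in SM to 1.87 ± 0.619 CPM in LV (SD, n = 7 each), a log2 fold change of -5.21 (SE 0.296). Fos fell from 28.7 ± 25.1 to 2.16 ± 0.871 CPM (log2 fold change -3.72, SE 0.635) and Fosb from 3.42 ± 3.79 to 0.324 ± 0.211 CPM (log2 fold change -3.39, SE 0.685), both lower in LV in 7 of 7 rats. Atf3 (-2.999), Egr1 (-2.69), Nr4a3 (-2.65) and Jun (-2.27) were lower too. Egr3 was lower by -1.28 (edgeR adjusted p = 0.0186), but with the replicate block by -0.94 (adjusted p = 0.0574).

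Junb went the other way, from 9.60 ± 2.795 CPM in SM to 13.1 ± 2.45 CPM in LV, and the log2 fold change stood at 0.45 (SE 0.173; adjusted p = 0.0253 by edgeR) and a higher level in LV in 6 of 7 rats. Ier2 did not pass in Sed (log2 fold change 0.15, edgeR adjusted p = 0.324), although with library totals alone it did (0.38, adjusted p = 0.0232). Library totals also moved the share of called genes higher in LV from 50.9% to 62.7% and the median of all genes from 0.0353 to 0.276.

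In ExT rats 79.3% of 14338 genes differed, 7 members were lower in LV, and Junb (log2 fold change 0.79, SE 0.133) and Ier2 (0.34, SE 0.0845) were higher, each in 7 of 7 rats. Nr4a1 had a log2 fold change of -5.13 (SE 0.201), from 66.4 ± 10.8 to 1.88 ± 0.708 CPM, and Fos one of -2.09 (SE 0.453), from 8.33 ± 2.99 to 1.94 ± 1.76 CPM. Egr3 did not pass (-0.53, edgeR adjusted p = 0.155). Of all genes called in ExT, 50.1% were higher in LV, and the median of all genes was 0.0119. Beside that, 2 AP-1, MAF and ATF relatives were higher and 7 lower of 12 (median -0.48), and 2 feedback inhibitors were higher and 10 lower of 17 (median -0.53). Of the 3 EGR relatives and NAB corepressors tested, 1 was higher and 1 lower (median 0.0362). Of the other early response genes 15 were higher and 19 lower of 40, with Ankrd1, a cardiac stress protein, at 7.42 and Cebpb at -4.31.

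Over the kinds of sample, Jun and Nr4a1 were higher in SM than in LV and in MT, with no overlap between rats in either arm. Beside them, 94.8% of all genes differed between MT and SM in Sed and 94.3% in ExT. Between LV and SM 78.7% and 79.3% did. How many other genes had no overlap was not counted. Egr3 and Fosb were higher in MT than in SM and not higher in LV. Their median counts in MT_Sed were 21 and 30, and Egr4, with a median of 0 counts in SM, had 16 there. In Sed Fosb lay below the median of all genes, 1.81. Whether the rise of Egr3 and Fosb in MT differs from that of other genes scarce in SM was not tested. Junb was lower in MT than in SM with TMM scaling and higher in LV. MT and LV were not compared directly.

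**Figure D5:**
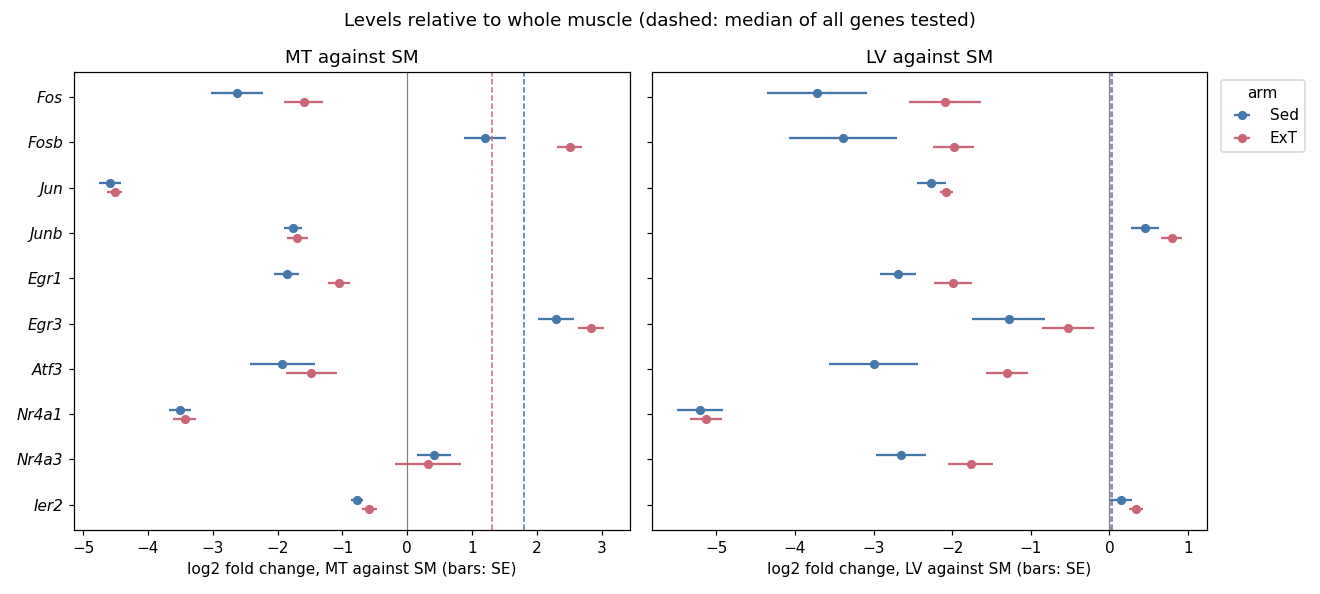
Log2 fold change with SE of each member in MT (left) and LV (right) against SM, in Sed and ExT rats; dashed lines mark the median of all genes tested. Fosb and Egr3 are above 0 in MT, where the medians are 1.81 and 1.31, and Junb is above 0 in LV, where Nr4a1 lies at -5.21 and -5.13.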

How the data were processed

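Raw counts of reads per gene, deposited by the authors in 3 tables (SM, MT, LV), were used for 74 libraries, grouped by their titles. The submitters' processing notes name cutadapt 4.6, FastQC 0.74, STAR 2.7.11a, HTSeq and the build mRatBN7.2; the strand setting is not given in the sources used here, so overlapping and antisense genes are uncertain. Per the labels, SM and MT libraries used a Zymo-Seq RiboFree kit and LV libraries a TruSeq Ribo-Zero kit. Groups were compared with the quasi-likelihood test of edgeR 4.0.16 (R 4.3.3; TMM factors, filterByExpr), adjusted over all genes tested and called under 0.05. DESeq2 1.42.0 was an alternative. Spread was tested with limma 3.58.1 on absolute deviations of log2 CPM (prior count 2), and correlations with 100000 two-sided permutations within the arm (numpy 2.4.6). The scripts were tested on simulated data.

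The members and the lists of related genes and cell markers were chosen with earlier results of these data known. Named were all members, up to 4 called genes of a list per comparison with the smallest adjusted p and a mean of at least 1 CPM, and the 5 genes most correlated with Fos. A gene that this rule names is not reported here. Rat numbers pair samples of one animal. The main fits between kinds of sample, and those of differences in the training effect, left this pairing out. Over all genes, the deviations of the SM and MT libraries of one rat had a median correlation of 0.015 (0.0009 for different rats), and those of SM and LV one of 0.0274 (0.0012). Each library is a separate animal within its kind of sample.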

Additional observations from a re-analysis of the deposited data

Results flagged for a closer look

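Among the 20 groups of 7 left ventricle libraries (10 members in 2 arms), 2 had a library far from the others. Both were the LV library of ExT rat 14, at 6.21 CPM for Fos, where the other 6 lay between 0.600 and 2.43 CPM, and at 3.67 CPM for Nr4a1, where they lay between 1.27 and 2.00 CPM. The gap to the nearest library was 0.673 and 0.697 of the group's range. Chance flags about 1 in 20 groups, which is 1 of these 20, and the 2 values come from 1 library. It is the LV_ExT library of the earlier rat numbers, and the SM library of the same rat had Fos at 12.8 CPM, inside the range of its arm.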

How the results depend on the processing

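For training in SM, 1 member (Egr1) was called in place of 0 with DESeq2 and within the earlier range of rat numbers, and 0 to 1 when libraries were left out in turn. All 7 refits that called it are for Egr1: without Sed rats 11, 20, 23, 29 or 30, or without ExT rats 17 or 18. The counts of members called in the other comparisons and in the spread and correlation tests stayed within 1.5 times under the alternatives run. Genes called over the whole table in SM ranged from 1 (later range) to 396 (earlier range), beside 28, with 118 by DESeq2 and 45 with the range as a covariate, and from 12 (without Sed rats 4, 8 or 12 or ExT rat 27) to 100 (without Sed rat 23) with a library left out. The count was 13 without ExT rats 5, 10 or 14, 14 without Sed rats 7 or 20 or ExT rat 6, 16 without ExT rat 25, 18 without Sed rat 24, 46 without Sed rat 30 and 69 without Sed rat 29. The difference between MT and SM in the training effect was called for 5 genes, and for 33 by DESeq2. It was called for 20 and 1 within the ranges, 3 with the block and 0 with library totals. Correlations between samples of a rat without the 2 farthest rats were computed for members alone, not across all genes.

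Of 650 alternative values of single members, 31 had the opposite sign. Those in MT against SM with library totals were 0.84 for Ier2 in Sed, and in ExT 0.0187 for Fos, 0.0106 for Junb, 0.48 for Egr1, 0.19 for Atf3 and 0.97 for Ier2. All others concern values that passed neither before nor after. In SM, training values turned to 0.43 (Atf3) and 0.95 (Nr4a3) in the earlier range and 0.0053 (Jun) and 0.0092 (Nr4a1) in the later. In MT they turned to 0.0491 (Egr3) and 0.0264 (Atf3) with library totals, -0.15 (Jun), 0.11 (Egr3), 0.0368 (Atf3), 0.003 (Nr4a3) and 0.0069 (Ier2) in the earlier range, and 0.14 (Fos), 0.0247 (Egr1) and 0.21 (Nr4a1) in the later. In LV they turned to 0.0274 (Nr4a1) with library totals and -0.0136 (Junb) in the later range. MT against SM in ExT turned to -0.0996 for Nr4a3 in the earlier range. The training effect in MT minus SM turned to 0.44 for Nr4a3 with DESeq2, to -0.0877 (Jun), -0.045 (Junb), -0.42 (Atf3) and -0.19 (Nr4a1) in the earlier range, and to 0.90 (Nr4a3) in the later. With the replicate block it turned to -0.0142 for Jun and 0.40 for Nr4a3. The causes were not tested. Beside the calls of Nr4a3 and Egr3 given in the report, the replicate block changed no other call of a member. Depth limits MT, where a member had 3 to 68 counts, and 7 rats an arm limit LV.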
